A study of Mus musculus with 25 samples.

Results

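The genes described here were 10 immune checkpoint ligands and receptors, taken by symbol from a count table of 24984 mouse genes, and all 10 were found in it. They were Cd274, Pdcd1lg2, Pdcd1, Cd80, Cd86, Ctla4, Havcr2, Lgals9, Lag3 and Tigit. The rule names the genes and uses no threshold on their values. Their levels were read in 25 RNA-seq libraries that fell into 7 groups, and levels are given as CPM, which is the counts of a gene scaled to the same total of counts in every library.

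Of the 7 groups, 3 were cultured BMEL cells, a clonally derived line of bipotential liver progenitors that came from the liver of a C57BL/6xC3H mouse embryo. BMEL WT cells carried the empty vector (n = 3 libraries), and RasLOW and RasHIGH cells (n = 3 each) carried a human H-Ras G12V cDNA in a bicistronic retroviral vector with a fluorescent protein. RasLOW and RasHIGH cells had been sorted from each other by the intensity of that fluorescence, and they came from the same progenitor line. The other 4 groups (n = 4 each) came from athymic nude mice that were injected with such cells in the liver and carried tumours in both the liver and the peritoneum. The labels do not state which Ras population each mouse received. The paper describes the sequenced tumour cells as Venus-positive, and it made both RasLOW and RasHIGH cells with the fluorescent protein Venus. In each of 4 mice the tumour at each site was sorted into fluorescent cells, called tumour cells here, and cells without fluorescence, called stroma. All tumour cells therefore share the H-Ras G12V construct, the BMEL origin and an athymic host, and stroma is defined by the lack of fluorescence alone. Nude mice keep NK cells, B cells, macrophages and dendritic cells.

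Immune checkpoints are pairs of a receptor on a lymphocyte and a ligand on another cell, which lower or raise the activity of the lymphocyte on contact. Cd274 and Pdcd1lg2 encode PD-L1 and PD-L2, the ligands of the inhibitory receptor PD-1, the product of Pdcd1. Cd80 and Cd86 are costimulatory ligands of antigen-presenting cells that are bound by the activating receptor Cd28 and, with higher affinity, by the inhibitory receptor Ctla4. Havcr2 encodes TIM-3, an inhibitory receptor of T cells that is also carried by NK cells, macrophages and dendritic cells, and the galectin encoded by Lgals9 is one of its described ligands. Lag3 encodes an inhibitory receptor that binds MHC class II, and Tigit encodes an inhibitory receptor of T and NK cells that binds Pvr and Nectin2.

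The libraries held between 20818989 and 51241336 counts, so that 3 counts corresponded to 0.0585 to 0.144 CPM, and replicates of a group correlated at 0.959 to 0.993 (Pearson, across genes on a log2 scale). The leukocyte genes Ptprc, Laptm5, Cd53, Coro1a, Cd48, Ikzf1 and Was summed to 0.482 to 0.789 CPM in BMEL WT, 1.03 to 2.28 in RasLOW, 6.96 to 14.8 in RasHIGH, 27.6 to 88.9 in tumour cells and 2094 to 3914 in stroma. Cd53 alone had means of 10.1 CPM in RasHIGH and of 59.1 and 31.8 CPM in liver and peritoneal tumour cells. The sums in tumour cells had medians of 66.3 CPM in the liver and 46.0 CPM in the peritoneum, so that Cd53 was much of them. Scaling tumour libraries to this sum therefore does not measure leukocyte content alone. The group means of Epcam lay between 0 and 0.35 CPM in the cultured and tumour cells, so that this progenitor marker was nearly absent, while the progenitor list as a whole was high. The progenitor genes in stroma stood at 13.9 to 15.7% of their level in the tumour cells of the same mouse in the liver, and at 6.37 to 10.4% in the peritoneum. The peritoneal tumour cells of mouse 1 stood apart, with Ptprc at 12.5 CPM against 1.07 to 1.24 in the other 3 mice. BMEL WT replicates 1 and 2 were read in another sequencing lane than replicate 3 and the Ras libraries, so the members and partners called and named for cultured cells are also set against replicate 3. In mouse 2 the liver libraries were read in lane 1 and the peritoneal ones in lane 2. Site and lane therefore cannot be told apart in that mouse, while both sites of each other mouse shared a lane.

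**Figure D1:**
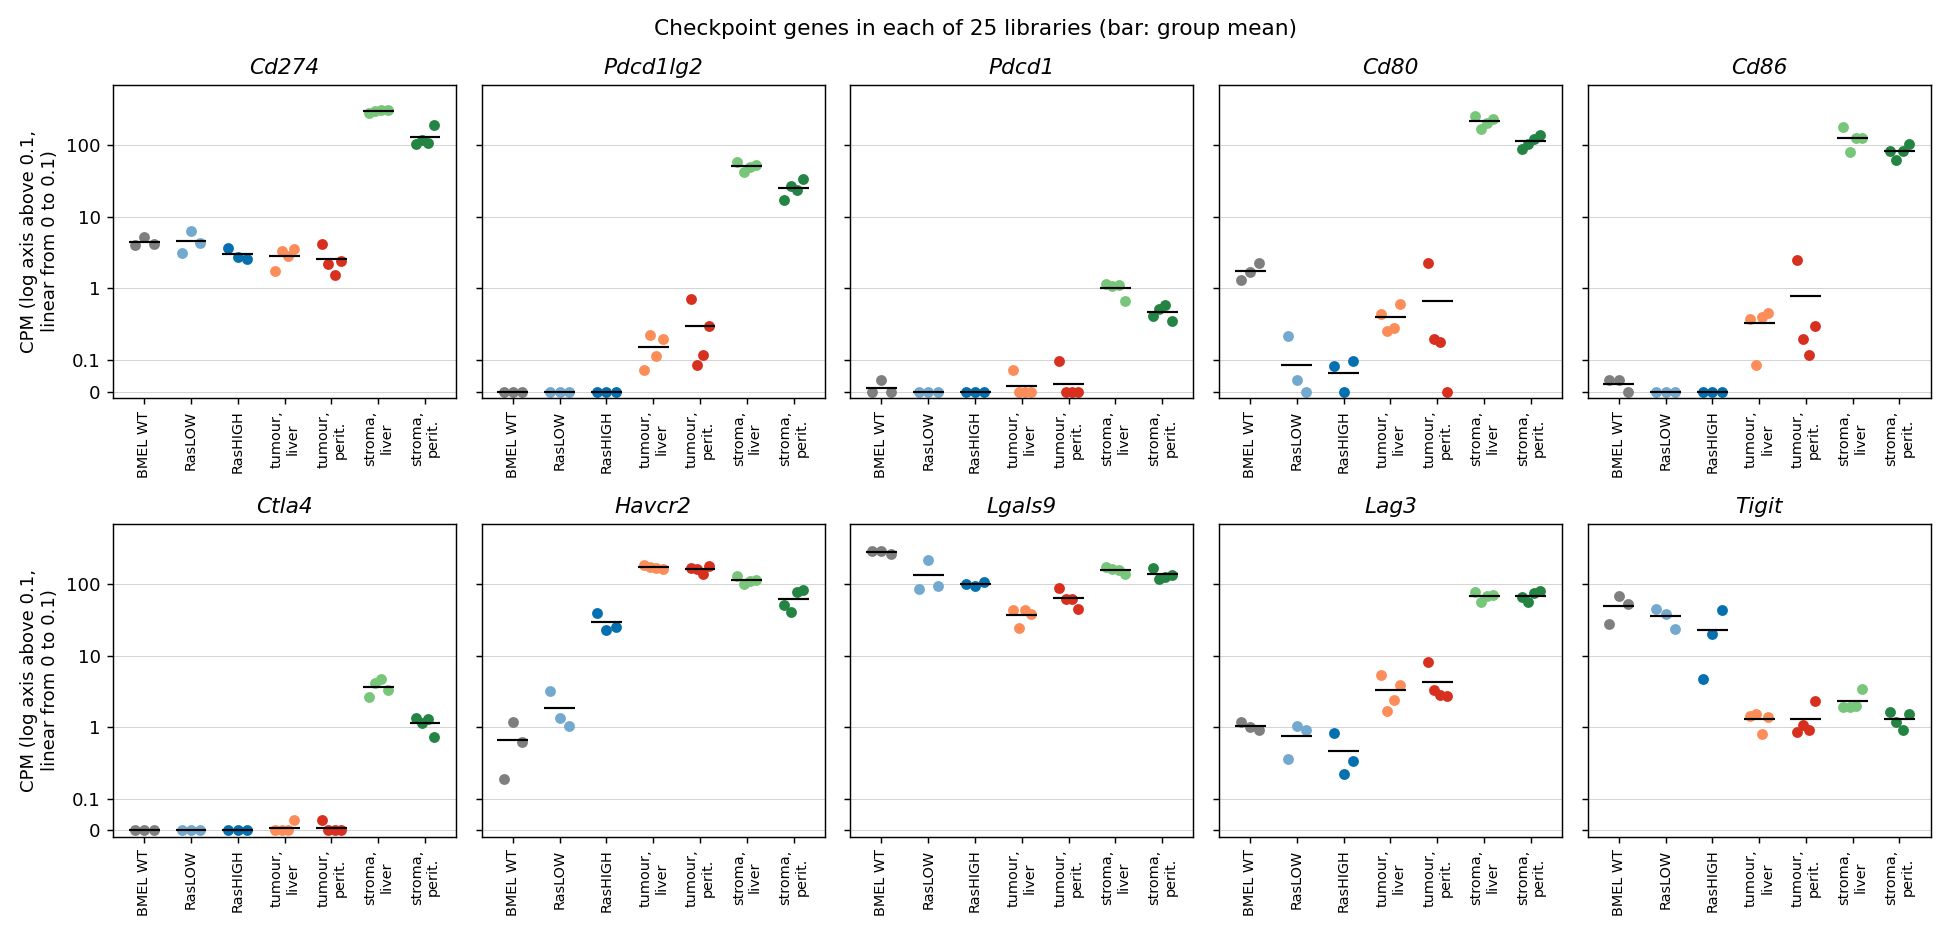
Level of each of the 10 genes in the 7 groups, in CPM on a vertical axis that is logarithmic above 0.1 and linear below, with 1 point per library and a bar at the group mean. Havcr2 is the gene that climbs from near 0 in BMEL WT to 139.6 to 183 CPM in tumour cells, Tigit is highest in cultured cells, and Cd274, Pdcd1lg2, Cd80, Cd86 and Lag3 are high in stroma.

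Comparing the cultured lines asked how these genes varied with the level of Ras. Havcr2 was higher in RasHIGH than in BMEL WT, while Lgals9 and Cd80 were lower, and the other members did not pass the test or were too low to be tested. Tests on all genes used edgeR's quasi-likelihood test with Benjamini-Hochberg adjustment over every gene tested, and a gene was called at an adjusted p below 0.05. In RasHIGH against BMEL WT, 6 members were tested, 1 was called higher and 2 lower, where 22.6% of 12331 genes tested were called, 10.9% as higher and 11.7% as lower. In RasLOW against BMEL WT, 1 of 6 tested members was called, and it was lower, where 5.96% of 12307 genes were called and 4.05% were lower. In RasHIGH against RasLOW, 0 of 5 tested members were called and 0.0752% of 11962 genes (9 genes) were, while 9.78% of genes had an unadjusted p below 0.05. These 3 comparisons share their libraries pairwise. The median log2 fold change over the tested members was -1.11 in RasHIGH against BMEL WT and -0.45 in RasLOW against BMEL WT, beside -0.02 and 0.01 over all genes.

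Havcr2 lies on mm9 chr11:46268437-46294757, plus strand. Its promoter, from 250 bases before to 50 bases after the RefSeq start (GRCm38.p6 chr11:46454681-46454980, plus strand), is shown because Havcr2 is the member that increased most with Ras. On both strands of all 32851 promoters of this length 4 motifs were searched, namely the AP-1 motif TGANTCA, present in 7.81% of them, the Ets motif CCGGAA in 14.9%, the interferon gamma-activated site TTCNNNGAA in 8.3% and the interferon-stimulated response element (TTTC, any 2 bases, TTTC) in 3.44%. In the Havcr2 window the letters of the AP-1 motif occurred once, starting 200 bases before the start and printed in capitals, and the other motifs did not occur.
Havcr2: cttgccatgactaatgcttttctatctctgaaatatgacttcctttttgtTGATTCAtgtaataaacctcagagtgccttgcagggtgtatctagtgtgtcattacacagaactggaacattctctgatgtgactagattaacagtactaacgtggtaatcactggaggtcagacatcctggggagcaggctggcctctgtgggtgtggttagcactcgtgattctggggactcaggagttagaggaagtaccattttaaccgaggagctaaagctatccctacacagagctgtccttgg

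In BMEL WT Havcr2 was at 0.185, 1.19 and 0.623 CPM, in RasLOW at 3.23, 1.36 and 1.03 CPM, and in RasHIGH at 39.7, 23.1 and 25.5 CPM. RasHIGH did not overlap with either other line, while RasLOW and BMEL WT did overlap. The RasHIGH mean of 29.4 ± 8.97 CPM (SD, n = 3) was 44.1 times that of BMEL WT, with a log2 fold change of 5.47 (SE 0.56, adjusted p = 0.00111). Against RasLOW the log2 fold change was 3.95 (SE 0.51), and its unadjusted p of 9.2e-05 gave an adjusted p of 0.0741, which missed the threshold. The adjusted p of that comparison ranged from 1.25e-13 to 0.288 over the alternatives, with DESeq2 the lowest, and without RasLOW replicate 1 it was 0.0268 with a log2 fold change of 4.65. RasLOW exceeded BMEL WT by 1.53 on the log2 scale (SE 0.72, adjusted p = 0.28). Cd53, a tetraspanin of leukocytes, was also higher in RasHIGH than in BMEL WT, while Ptprc and Laptm5 were near 0 in both, and the relation of Cd53 to Havcr2 was not tested. Against BMEL WT replicate 3 alone, at 0.623 CPM and in the lane of the Ras libraries, all 3 RasHIGH libraries were higher.

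Lgals9 lies on mm9 chr11:78776476-78798448, minus strand. Its promoter (GRCm38.p6 chr11:78984875-78985174, minus strand) is shown because it held the interferon-stimulated response element at 2 places, starting 55 bases before and 15 bases after the start, both in capitals, and no other motif searched.
Lgals9: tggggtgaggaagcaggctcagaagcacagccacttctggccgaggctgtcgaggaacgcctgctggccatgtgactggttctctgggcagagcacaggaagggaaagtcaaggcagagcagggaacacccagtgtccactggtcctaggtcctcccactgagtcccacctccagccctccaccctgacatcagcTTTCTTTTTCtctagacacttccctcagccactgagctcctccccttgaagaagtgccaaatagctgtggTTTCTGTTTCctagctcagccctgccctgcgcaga

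BMEL WT libraries held Lgals9 at 287, 293 and 261 CPM, RasLOW libraries at 86.7, 217 and 94.3 CPM, and RasHIGH libraries at 100.2, 93.1 and 107 CPM. Neither Ras line overlapped with BMEL WT, and they overlapped with each other. Lgals9 fell by 1.47 on the log2 scale in RasHIGH (SE 0.12, adjusted p = 0.000569). In RasLOW the log2 fold change was -1.09 (SE 0.33, adjusted p = 0.105), and without RasLOW replicate 2, the library nearest to BMEL WT, it was -1.59 with an adjusted p of 0.00136, within a range of 0.00136 to 0.263 over the alternatives. BMEL WT replicate 3 alone, at 261 CPM, was above all 6 Ras libraries.

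Cd80 lies on mm9 chr16:38459013-38495821, plus strand. The promoter of Cd80 (GRCm38.p6 chr16:38458683-38458982, plus strand) is shown beside that of Havcr2 because it too held an AP-1 motif, in capitals, starting 42 bases before the start, while the level of the gene moved the other way. The windows of Cd274, Pdcd1lg2, Pdcd1, Ctla4 and Tigit held none of the 4 motifs, which says only that these letters are not in those windows.
Cd80: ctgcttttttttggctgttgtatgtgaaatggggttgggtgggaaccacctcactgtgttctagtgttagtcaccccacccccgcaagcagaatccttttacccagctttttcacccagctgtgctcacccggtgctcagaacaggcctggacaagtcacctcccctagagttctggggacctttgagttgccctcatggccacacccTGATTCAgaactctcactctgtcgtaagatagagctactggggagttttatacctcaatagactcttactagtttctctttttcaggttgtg

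Cd80 was low in all cultured cells. BMEL WT libraries had 1.30, 1.68 and 2.24 CPM from 35, 45 and 54 counts, RasLOW libraries had 6, 1 and 0 counts, and RasHIGH libraries had 2, 0 and 2 counts. The Ras lines lay below every BMEL WT library, including replicate 3. Cd80 fell by 4.21 on the log2 scale in RasLOW (SE 0.83, adjusted p = 0.0311) and by 4.76 in RasHIGH (SE 0.64, adjusted p = 0.00295). The RasLOW call rested on few libraries: the adjusted p was 0.0865 without BMEL WT replicate 1, 0.10 without replicate 2, 0.102 without replicate 3 and 0.0818 without RasLOW replicate 3, and it ranged from 2.74e-05 to 0.102 over the alternatives.

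Per length, Tigit came next after Lgals9 among the members in each cultured line, although its protein is known from lymphocytes. It lies on mm9 chr16:43648974-43664297, minus strand. Its levels were 27.3, 68.2 and 53.4 CPM in BMEL WT, 44.8, 38.3 and 23.8 CPM in RasLOW, and 4.76, 20.2 and 43.9 CPM in RasHIGH, so that the 3 groups overlapped. The log2 fold change was -1.09 in RasHIGH (SE 0.70, adjusted p = 0.321) and -0.45 in RasLOW (adjusted p = 0.537) against BMEL WT. The spread within RasHIGH covered most of the range of all 9 cultured libraries. Zbtb20, the gene 6259 bp away, had group means between 2.76 and 6.65 CPM over the 7 groups. No marker of T cells was high enough to be tested in the cultured lines.

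Cd274 was present at a low level in every cultured library. It was at 4.08, 5.25 and 4.19 CPM in BMEL WT, at 3.16, 6.24 and 4.25 CPM in RasLOW, and at 3.65, 2.77 and 2.59 CPM in RasHIGH. All RasHIGH libraries were below all BMEL WT libraries, but the log2 fold change of -0.57 (SE 0.25) did not pass the test (adjusted p = 0.155), and the RasLOW value of 0.02 had an adjusted p of 0.986. Lag3 was between 0.224 and 1.19 CPM in the 9 cultured libraries, with an adjusted p of 0.162 for RasHIGH and 0.659 for RasLOW against BMEL WT. Without RasHIGH replicate 1 the adjusted p of Lag3 in RasHIGH was 0.0267, within a range of 0.0267 to 0.349 over the alternatives.

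The remaining 4 members were near or at 0 in culture. Pdcd1lg2 and Ctla4 had 0 counts in all 9 libraries, Pdcd1 had 1 count, in BMEL WT replicate 2, and Cd86 had 2 counts in all, both in BMEL WT. A count of 0 in these libraries allows a level of up to 0.106 to 0.144 CPM, depending on the depth of the library, for counting error only.

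Levels of cultured and tumour cells were set side by side without a test, since the groups differed in growth, host and sorting together. All RasLOW and RasHIGH libraries were also read in another sequencing lane than the tumour libraries. Havcr2 was at 183, 171, 170.0 and 164 CPM in liver tumour cells and at 168, 161, 139.6 and 182 CPM in peritoneal tumour cells, all above the highest RasHIGH library at 39.7 CPM. Tigit was at 0.814 to 2.34 CPM in the 8 tumour libraries, all below the lowest cultured library at 4.76 CPM. Lgals9 was at 24.3 to 87.4 CPM in tumour cells, below its lowest RasHIGH library at 93.1 CPM and overlapping with RasLOW at 86.7 CPM. Per length, in CPM per kilobase of exon (RPKM), Havcr2 was the highest member in liver tumour cells with a mean of 63.2 RPKM, ahead of Lgals9 at 17.3 RPKM, Lag3 at 1.58 RPKM and Tigit at 1.34 RPKM. In BMEL WT the order was led by Lgals9 at 131 RPKM and Tigit at 51.5 RPKM, with Cd274 at 1.24 RPKM and Havcr2 at 0.245 RPKM.

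Tumour cells of the liver were compared with those of the peritoneum to ask whether the site of growth went with different levels. None of the 6 members tested was called, where 3.2% of 13074 genes were called and 20.2% had an unadjusted p below 0.05. With the mouse as a block the number of genes called dropped from 419 to 102 and the number of members called stayed at 0. The median log2 fold change was -0.13 over the tested members and -0.01 over all genes. Lgals9 differed most clearly in its levels, with 43.3, 24.3, 42.8 and 37.8 CPM in the liver and 87.4, 62.9, 61.1 and 44.6 CPM in the peritoneum for mice 1 to 4. The groups did not overlap and the liver value was lower in 4 of 4 mice, but the log2 fold change of -0.74 (SE 0.22) had an adjusted p of 0.102, and over the alternatives the adjusted p ranged from 0.0127, with DESeq2, to 0.226.

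Havcr2 was close to even between the sites, with a log2 fold change of 0.13 and an adjusted p of 0.452. Cd274 was at 1.72, 3.38, 2.86 and 3.51 CPM in liver tumour cells and at 4.11, 2.21, 1.52 and 2.38 CPM in peritoneal ones, and the groups overlapped (log2 fold change 0.22, adjusted p = 0.768). Lag3, Cd80 and Cd86 each had their highest tumour level in the peritoneal cells of mouse 1, at 8.22, 2.26 and 2.52 CPM. That library also held the most Ptprc of the tumour libraries. Without it the log2 fold change of Cd86 moved from -1.22 to 0.78 and that of Lag3 from -0.31 to 0.24, and neither value was called with or without it. Pdcd1 had 3 counts in the liver and 3 in the peritoneal tumour cells, all from mouse 1, and Ctla4 had 1 count at each site.

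Sorted stroma was next compared with the tumour cells of the same site, to ask which compartment carried each gene. In the liver, 9 of 10 members were higher in stroma and 1 was lower, where 77.8% of 14620 genes were called, 39.4% as higher and 38.4% as lower in stroma. In the peritoneum, 8 of 10 members were higher and 1 was lower, where 76.6% of 14584 genes were called, 37.1% as higher and 39.5% as lower. The median log2 fold change over members was 6.14 for the liver and 5.06 for the peritoneum, beside -0.0036 and -0.07 over all genes. Scaled to the 7 leukocyte genes in place of all genes, 5 members were higher and 4 lower in liver stroma. On that scale 944 of the 14620 genes were higher in liver stroma and 12771 lower, with a median of -5.86. The call of Pdcd1 was lost there (adjusted p = 0.892). In peritoneal stroma 2 members were higher and 4 lower, beside 502 and 12492 of the 14584 genes, with a median of -5.95. There the calls of Cd274 (0.073, adjusted p = 0.890), Pdcd1lg2 (0.96, adjusted p = 0.124), Pdcd1 (adjusted p = 0.417) and Ctla4 (adjusted p = 0.210) were lost. Tigit was called lower there (-5.85, adjusted p = 9.89e-18), at a value close to the median of all genes. Since these are bulk libraries, fewer cells of a type and less RNA per cell cannot be told apart in any of these values.

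The costimulatory ligands Cd80 and Cd86 and the PD-1 ligands had the widest gaps. Cd80 was at 257, 172, 205 and 236 CPM in liver stroma and at 0.437, 0.253, 0.281 and 0.612 CPM in the tumour cells of the same mice, a log2 fold change of 9.19 (adjusted p = 1.79e-11). Its log2 fold change in the peritoneum was 7.60 (adjusted p = 7.89e-05). For Cd86 the log2 fold changes were 8.70 (adjusted p = 8.81e-10) in the liver and 6.92 (adjusted p = 8.01e-05) in the peritoneum. Cd274 had a log2 fold change of 6.80 (SE 0.20, adjusted p = 4.48e-11) in the liver and 5.80 (adjusted p = 3.17e-06) in the peritoneum. Pdcd1lg2 had values of 8.51 (adjusted p = 3.13e-11) and 6.58 (adjusted p = 1.12e-05). In each of these 4 genes every stroma library was above every tumour library of its site. How many of all genes were separated in this way was not counted.

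Tumour-cell levels were then written as a percentage of the stroma level in the same mouse, and set beside the leukocyte gene Ptprc, which encodes CD45. In the liver the tumour cells had Ptprc at 0.197 to 0.281% of the stroma level, Cd80 at 0.137 to 0.260%, Cd86 at 0.104 to 0.357% and Pdcd1lg2 at 0.117 to 0.530%, so that these ligands stood in the range of Ptprc or near it. Cd274 stood above that range, at 0.612, 1.02 and 1.14% as the lowest, the median and the highest of 4 mice. Lag3 was at 2.96 to 6.86%, Lgals9 at 15.1 to 27.6% and Tigit at 40.6 to 80.2%. In the peritoneum Ptprc ranged from 0.203 to 2.27%, with the high value in mouse 1, Cd274 from 1.24 to 3.99% and Lag3 from 3.42 to 12.4%. The leukocyte genes themselves did not share a single percentage in the liver, since Was was at 0.838 to 1.71% and Cd53 at 11.3 to 17.3%.

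**Figure D2:**
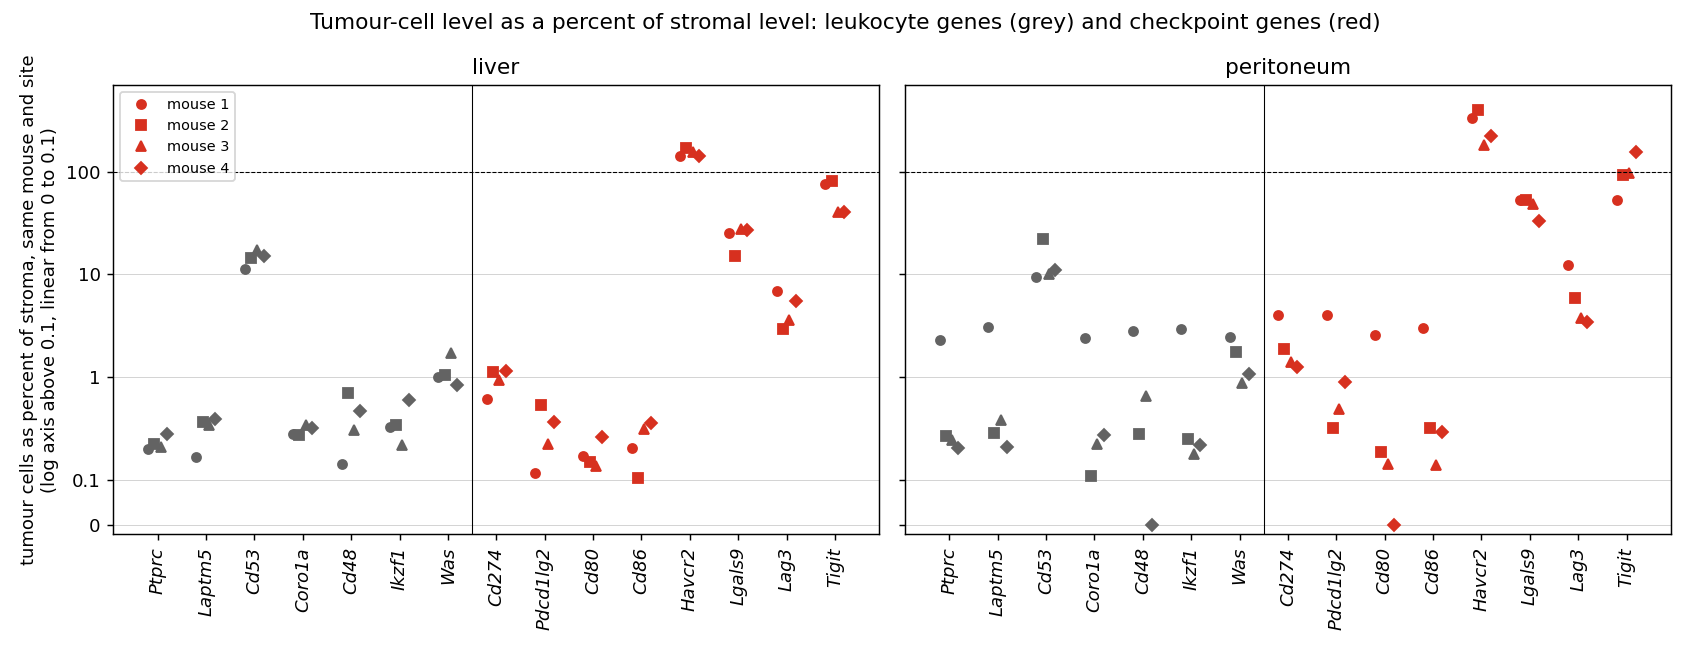
Tumour-cell level as a percentage of the stroma level of the same mouse and site, on an axis that is logarithmic above 0.1 and linear below, with 1 point per mouse for 8 members (red) and 7 leukocyte genes (grey). Havcr2 lies above 100% in all 8 pairs, Cd80 and Cd86 lie near Ptprc, and Cd274, Lag3, Lgals9 and Tigit lie above Ptprc in the liver.

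Havcr2 was the member that was lower in stroma. Its stroma levels were 129, 101, 111 and 115 CPM in the liver and 50.3, 40.1, 77.0 and 82.0 CPM in the peritoneum, below the tumour cells of the same mouse in 8 of 8 pairs. The log2 fold change of stroma against tumour cells was -0.52 in the liver (SE 0.10, adjusted p = 0.000443) and -1.27 in the peritoneum (SE 0.23, adjusted p = 0.00103). The liver call was lost when all 25 libraries were fitted together (-0.51, adjusted p = 0.121, in a range of 2.1e-39 to 0.121 over the alternatives). Written the other way, the tumour cells had Havcr2 at a median of 148% (liver) and 278% (peritoneum) of the stroma level. The progenitor genes were themselves found in stroma at a median of 15.1% (liver) and 7.04% (peritoneum) of the tumour level, and how much of the Havcr2 in stroma came with them was not tested.

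Lgals9, the galectin ligand, differed in the opposite direction to Havcr2, although both genes were present in both compartments. Lgals9 was at 172, 161, 155 and 139 CPM in liver stroma and 166, 118, 125 and 135 CPM in peritoneal stroma. It was higher than in tumour cells by 2.15 on the log2 scale in the liver (adjusted p = 2.51e-07) and by 1.2 in the peritoneum (adjusted p = 0.000581). Lag3 was higher by 4.43 (adjusted p = 4.20e-08) and by 4.14 (adjusted p = 2.06e-05). The signs changed with the scaling: relative to the summed leukocyte genes, where the median of all genes in the liver was -5.86, Lgals9 was at -3.68 and Lag3 at -1.47 in liver stroma against tumour cells. Much of that sum in tumour cells was Cd53, which cultured RasHIGH cells also held (mean 10.1 CPM). These scaled values therefore do not give a direction per leukocyte.

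Pdcd1 and Ctla4, the receptors best known from T cells, were low in stroma and nearly absent from tumour cells. In liver stroma 46, 31, 35 and 18 counts were assigned to Pdcd1 and 105, 118, 149 and 89 to Ctla4, and in peritoneal stroma 12, 12, 19 and 10 to Pdcd1 and 39, 26, 43 and 21 to Ctla4. The adjusted p against tumour cells was 9.99e-06 for Pdcd1 and 4.75e-08 for Ctla4 in the liver, and 0.00107 and 1.98e-05 in the peritoneum. No fold change is given for them because the tumour libraries held 0 to 3 counts each. Tigit was at 1.88, 1.90, 2.0 and 3.40 CPM in liver stroma, 0.92 above the tumour cells on the log2 scale (adjusted p = 0.0137), and this call was lost without the stroma library of mouse 4 (adjusted p = 0.0539, in a range of 2.02e-18 to 0.0933 over the alternatives). In the peritoneum Tigit overlapped between stroma and tumour cells (log2 fold change 0.13, adjusted p = 0.762).

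Comparison of liver stroma with peritoneal stroma asked whether the checkpoint genes of the host cells went with the site. In the liver 6 of 10 members were higher and 0 were lower, namely Cd274, Pdcd1lg2, Pdcd1, Cd80, Ctla4 and Havcr2, where 33.4% of 14755 genes were called and 14.9% were higher in the liver. Lag3 and Lgals9 were close to even. The median log2 fold change was 0.78 over the 10 members and 0.02 over all genes.

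Cd274 lies on mm9 chr19:29441945-29462585, plus strand, 22824 bp from Pdcd1lg2 at chr19:29485409-29545647 on the same strand. In mice 1 to 4 Cd274 was at 282, 302, 309 and 309 CPM in liver stroma and at 103, 117, 109 and 191 CPM in peritoneal stroma. Every liver library was above every peritoneal one, and the peritoneal value of mouse 4 was the nearest. The means of 300.6 ± 12.8 and 130 ± 41.2 CPM (SD, n = 4) differed by 1.09 on the log2 scale (SE 0.19, adjusted p = 0.00163). The neighbouring Pdcd1lg2 was at 58.9, 42.5, 50.1 and 53.5 CPM against 17.3, 26.8, 23.9 and 33.6 CPM, again without overlap, with a log2 fold change of 0.90 (SE 0.19, adjusted p = 0.00584). Their receptor gene Pdcd1 was at 1.14, 1.09, 1.11 and 0.665 CPM against 0.412, 0.519, 0.581 and 0.351 CPM. The groups did not overlap (log2 fold change 0.98, SE 0.31, adjusted p = 0.0337), but the call was lost in 6 of the 8 fits that left out 1 library, with adjusted p between 0.0315 and 0.0931.

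Cd80 and its receptor Ctla4 followed the same direction. Cd80 was at 257, 172, 205 and 236 CPM in liver stroma and at 88.3, 106, 124 and 141 CPM in peritoneal stroma, and the groups did not overlap (log2 fold change 0.81, SE 0.18, adjusted p = 0.00662). Ctla4 had the largest fold change of the members, with 2.60, 4.14, 4.74 and 3.29 CPM against 1.34, 1.12, 1.31 and 0.737 CPM (log2 fold change 1.59, SE 0.27, adjusted p = 0.00179). Ctla4 lies on mm9 chr1:60943844-60972676, where the annotation also places the pseudogene Rpl18-ps1, and reads of the overlap cannot be assigned with certainty. Cd86 was at 180, 81.5, 125 and 126 CPM in the liver and 83.7, 61.8, 84.1 and 104 CPM in the peritoneum. It was higher in the liver in 4 of 4 mice but the liver value of mouse 2 lay within the peritoneal range, and the log2 fold change of 0.51 (SE 0.24) had an adjusted p of 0.132. With the mouse as a block Cd86 had a log2 fold change of 0.47 and an adjusted p of 0.0442, without the liver stroma of mouse 2 its adjusted p was 0.0256, and over the alternatives the range was 0.0256 to 0.656.

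Of the remaining receptors, Havcr2 was higher in liver stroma by 0.75 on the log2 scale (SE 0.22, adjusted p = 0.0253) in 4 of 4 mice. The Havcr2 call was lost without the liver stroma of mouse 1 (adjusted p = 0.0641) or mouse 4 (0.0566) or the peritoneal stroma of mouse 1 (0.0615). Tigit was higher in 4 of 4 mice without overlap, and its log2 fold change of 0.70 (SE 0.29) had an adjusted p of 0.0921. Lag3 was at 78.1, 56.1, 67.9 and 71.3 CPM in the liver and 66.2, 56.2, 75.3 and 79.4 CPM in the peritoneum, with overlapping groups and a log2 fold change of -0.13 (adjusted p = 0.516). Lgals9 had a log2 fold change of 0.09 (adjusted p = 0.602).

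**Figure D3:**
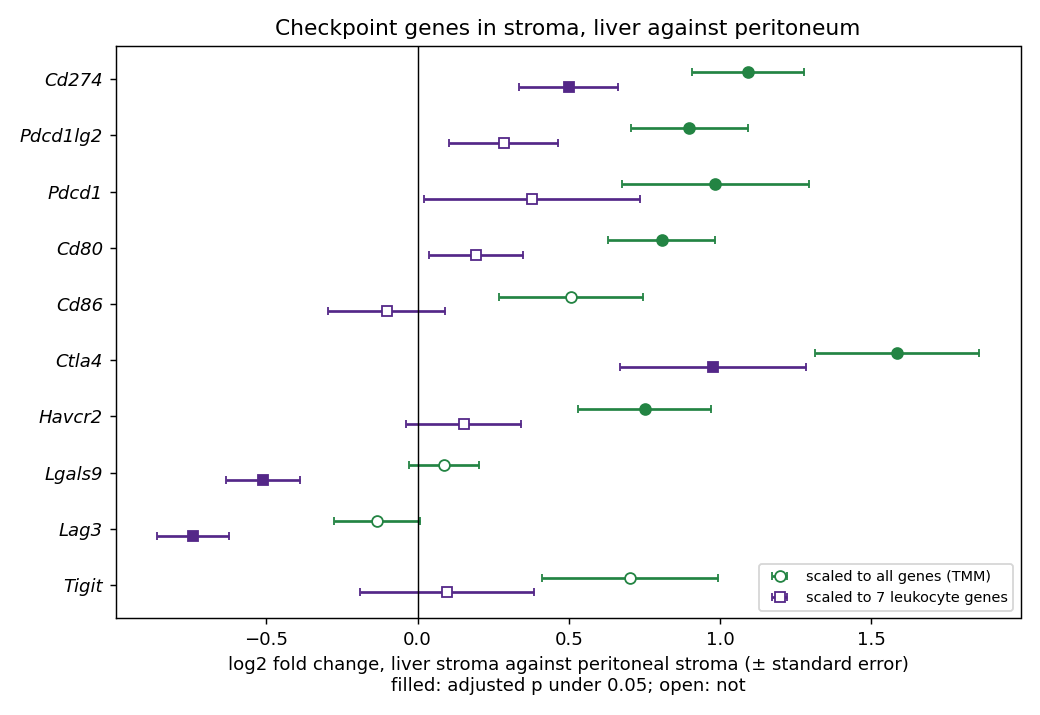
Log2 fold change of liver against peritoneal stroma for the 10 members, with the SE as error bars and filled symbols for an adjusted p below 0.05, under the usual scaling and after scaling to 7 leukocyte genes. Under the usual scaling 8 members lie above 0.5. After leukocyte scaling Cd274 (0.50) and Ctla4 (0.98) stay called as higher while Lag3 (-0.74) and Lgals9 (-0.51) are called as lower. On the leukocyte scale the median of all genes is -0.59, and 312 genes are called higher and 9862 lower.

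Cell type markers differed between the stroma of the sites as well. The 7 leukocyte genes were all higher in liver stroma, with a median log2 fold change of 0.54, and summed to 3460 to 3914 CPM in the liver and 2094 to 2469 CPM in the peritoneum. Higher in the liver were 5 of 6 tested NK cell genes (sums 29.7 to 49.9 against 8.10 to 15.2 CPM), 5 of 5 B cell genes (24.1 to 43.9 against 2.38 to 11.0 CPM), 4 of 4 Kupffer cell genes (178 to 532 against 4.28 to 22.5 CPM) and 6 of 7 dendritic cell genes (702 to 885 against 409 to 529 CPM). Among macrophage genes 1 of 7 was higher (3197 to 3582 against 2034 to 3471 CPM), and among T cell genes 1 of 7 was higher and 1 lower (19.1 to 28.8 against 21.0 to 42.2 CPM). The T cell genes did not move together, with a median log2 fold change of 0.66: Cd3e was called lower in the liver, with means of 1.63 and 10.6 CPM, Cd247 was called higher, with means of 1.21 and 0.494 CPM, and the means of Cd8a (5.13 and 2.26 CPM), Cd8b1 (2.13 and 1.25 CPM) and Cd3g (0.648 and 0.266 CPM) were higher in the liver without passing the test. Foxp3 had means of 0.252 and 0.146 CPM. All 5 fibroblast genes were lower in the liver, with the largest sums of the lists (3773 to 7713 against 47737 to 70899 CPM). Of the neutrophil genes 2 of 5 were higher (1117 to 1684 against 462 to 2652 CPM), as were 2 of 5 endothelial genes (469 to 1035 against 300 to 448 CPM). Of 4 mesothelial genes 1 was lower. Hepatocyte genes were higher in 3 of 3 tested (sums 16.9 to 166 against 0.735 to 2.51 CPM), among them Alb with means of 54.3 and 0.0076 CPM, and liver progenitor genes in 5 of 7 (sums 1280.5 to 1521 against 646 to 1039 CPM), and their part in the values of Havcr2 and of the hepatocyte-made Fgl1 was not tested.

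When libraries were scaled to the 7 leukocyte genes in place of all genes, the median of all genes moved to -0.59 on the log2 scale. Of the 14755 genes tested, 312 were then called higher in the liver and 9862 lower. On this scale Cd274 stayed higher in liver stroma by 0.50 (SE 0.16, adjusted p = 0.0181) and Ctla4 by 0.98 (adjusted p = 0.0153). Over all alternatives their adjusted p ranged from 1.31e-07 to 0.0181 for Cd274 and from 1.13e-06 to 0.0153 for Ctla4. The calls of Pdcd1lg2 (0.29, adjusted p = 0.180), Pdcd1 (0.38, adjusted p = 0.363), Cd80 (0.19, adjusted p = 0.290) and Havcr2 (0.15, adjusted p = 0.494) were lost. Relative to the sum of these genes, Lag3 was called lower in the liver (-0.74, adjusted p = 0.000373), and so was Lgals9 (-0.51, adjusted p = 0.00354). Lag3 lay below and Lgals9 above the median of all genes, -0.59. Cd86 was at -0.10 (adjusted p = 0.656). The part that any single cell type took in these differences was not tested.

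Per length, the order of the members in liver stroma was Cd274 at 83.0, Cd80 at 74.4, Lgals9 at 73.4, Havcr2 at 41.8, Cd86 at 34, Lag3 at 32.4 and Pdcd1lg2 at 31.2 RPKM, followed by Tigit at 2.38, Ctla4 at 1.59 and Pdcd1 at 0.520 RPKM. With SDs of 12.8 RPKM for Cd80, 6.44 RPKM for Lgals9 and 10.7 RPKM for Cd86, neighbours within the first 3 places and within the next 4 places were no further apart than their spread. In peritoneal stroma Lgals9 led at 63.8 RPKM, ahead of Cd80 at 39.3, Cd274 at 35.9 and Lag3 at 32.8 RPKM.

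The site difference was then compared between stroma and tumour cells as an interaction, in which 14.3% of 15331 genes were called and the median of all genes was 0.12 on the log2 scale. Among the 10 members 1 was called, Lgals9, whose liver-against-peritoneum difference was 0.90 higher in stroma than in tumour cells (SE 0.28, adjusted p = 0.0427). Its levels were lower in the liver than in the peritoneum in the tumour cells of all 4 mice and higher in the stroma of all 4. This call was lost in 13 of the 16 fits that left out 1 library, with adjusted p of 0.0166 to 0.142. The adjusted p ranged from 0.0150, with the mouse as a block, to 0.408, with leukocyte scaling, over all alternatives. Havcr2 (0.70, adjusted p = 0.0879), Pdcd1lg2 (1.86, adjusted p = 0.0873) and Cd274 (0.94, adjusted p = 0.124) did not pass the test, although Pdcd1lg2 did without the peritoneal tumour cells of mouse 2 (adjusted p = 0.0443) or mouse 3 (0.0462).

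The partners of the members were read from a list of 21 further ligands and receptors of the same axes. In RasHIGH against BMEL WT 4 of 7 tested partners were higher and 0 lower, where 10.9% of all genes tested were higher and 11.7% lower, and in liver against peritoneal tumour cells 1 of 10 was higher, where 1.33% of all genes were. Ceacam1 is in both counts. The paper had picked this gene from the same RNA-seq data, as higher in RasHIGH than RasLOW and in liver than peritoneal tumour cells. The paper's thresholds were a log2 fold change above 1 and a p below 0.05. The calls of Ceacam1 here are therefore not independent of that choice. The paper also measured Ceacam1 by RTqPCR in cells and tumours, and its protein on tumour cells by flow cytometry. Ceacam1, an adhesion molecule that is a described ligand of TIM-3, had means of 0.233 CPM in BMEL WT, 0.878 in RasLOW, 10.4 in RasHIGH and 13 in liver tumour cells. Stroma held it too, at 12.5 to 19.7 CPM in the liver and 6.39 to 18.5 CPM in the peritoneum. The log2 fold change of Ceacam1 in RasHIGH against BMEL WT was 5.47 (SE 0.69, adjusted p = 0.00236), beside the 5.47 of Havcr2, and Ceacam1 was higher in liver than in peritoneal tumour cells by 1.93 (SE 0.44, adjusted p = 0.0451). Whether this site call held under the alternatives was not tested. Against RasLOW the Ceacam1 value of 3.53 did not pass the test (adjusted p = 0.170). In that comparison 9 of 11962 genes were called, and the adjusted p used here is not the threshold of the paper. BMEL WT replicate 3 alone, at 0.291 CPM of Ceacam1, was below the RasHIGH libraries at 5.0 to 13.2 CPM.

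Among other partners of tumour cells, Cd276, which encodes the checkpoint ligand B7-H3, had means of 35.8 CPM in BMEL WT, 69.4 in RasHIGH and 75.4 and 94.9 in liver and peritoneal tumour cells. It was higher in RasHIGH than in BMEL WT by 0.97 on the log2 scale (adjusted p = 0.0050). Rgmb, a further binding partner of PD-L2, was higher in RasHIGH by 0.99 (adjusted p = 0.0160). In BMEL WT replicate 3 Cd276 was at 41.9 CPM and Rgmb at 13.5 CPM, below all RasHIGH libraries at 64.3 to 75.6 CPM and 20.8 to 32.6 CPM. Pvr and Nectin2, the ligands of Tigit, were present in all groups, with means of 30.8 to 126 CPM for Pvr and 51.6 to 79.8 CPM for Nectin2. The tumour means of Pvr were 126 CPM at both sites.

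In stroma, 7 of 20 tested partners were higher in the liver and 4 were lower, where 14.9% of all genes tested were higher and 18.5% lower. The ICOS ligand gene Icosl was higher in the liver by 0.89 (adjusted p = 0.00104), with means of 71.0 and 35.4 CPM, and Cd96, a receptor of NK and T cells for Pvr, by 1.08 (adjusted p = 0.0114), with means of 1.51 and 0.659 CPM. Cd276 (-1.56, adjusted p = 1.59e-05), Rgmb (-0.59, adjusted p = 0.00509) and Nectin2 (-0.51, adjusted p = 0.0103) were lower in liver stroma. Fgl1, a described Lag3 ligand made by hepatocytes, had a mean of 3.87 CPM in liver stroma and 0 in peritoneal stroma (adjusted p = 0.00205). Vsir, which encodes VISTA, was high in stroma, with means of 396 and 334 CPM (log2 fold change 0.13, adjusted p = 0.396) against 1.14 and 4.02 CPM in tumour cells. Cd28, which shares its ligands with Ctla4, had means of 2.37 and 1.27 CPM (adjusted p = 0.186), and Cd226, the activating counterpart of Tigit, had 1.76 and 2.18 CPM.

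**Figure D4:**
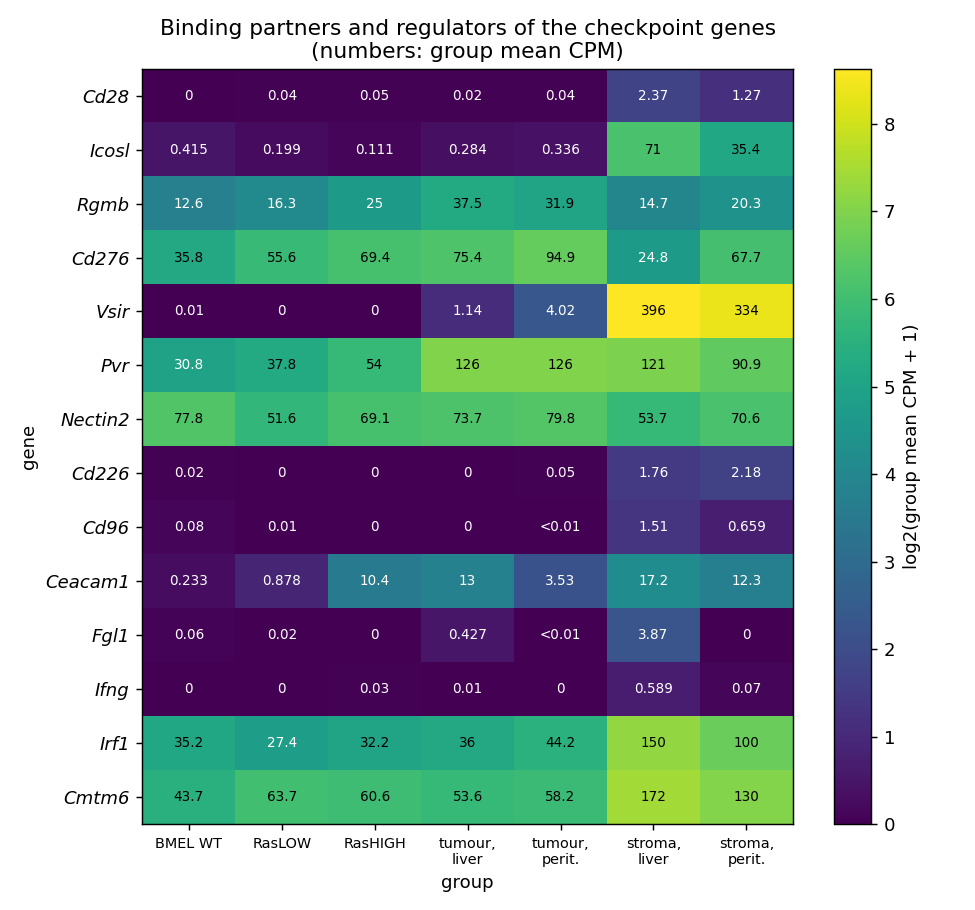
Mean level of the named partner and interferon gamma genes in the 7 groups (columns), printed as CPM in each cell and coloured by log2(CPM + 1). Ceacam1 is at 0.233 CPM in the BMEL WT column and at 10.4 CPM in the RasHIGH column, Pvr and Nectin2 are present in all groups, and Vsir and Icosl are highest in stroma.

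Of the interferon gamma arm, which is known to induce PD-L1 through Irf1, 9 of 10 listed genes were tested in each comparison. In liver against peritoneal stroma 4 were higher and 0 lower, beside 14.9% and 18.5% of all genes, in RasHIGH against BMEL WT 0 were higher and 2 lower, beside 10.9% and 11.7%, and in liver against peritoneal tumour cells none was called. Irf1 was higher in liver stroma by 0.47 (adjusted p = 0.0214), with means of 150 and 100.3 CPM. Ifng itself was low, with means of 0.589 CPM in liver stroma and 0.075 CPM in peritoneal stroma. Cmtm6, whose product keeps PD-L1 at the cell surface, was higher in liver stroma by 0.29 (adjusted p = 0.0284). The values of Irf1 and Cmtm6 were below the median of 0.54 of the 7 leukocyte genes in this comparison. Neither they nor the partners were read on the leukocyte scale. Of 10 genes of checkpoint pairs in the TNF families, 9 were tested in stroma and 2 were higher in the liver, beside 14.9% of all genes.

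The genes whose profile over the 25 libraries was nearest to each member were found by the mean absolute difference of centred log2(CPM + 1) values among 13156 to 13157 genes. Nearest to Cd274 were Hivep3 (0.289), Icosl (0.295) and Fcgr4 (0.322), and nearest to Cd80 were Rab44 (0.302), Adgrg5 (0.314) and Cd52 (0.341). Among the nearest to Cd86 were Galnt6 (0.152) and Myo1g (0.163). Havcr2 had no gene as near, with Calcrl at 0.576, Bnip3 at 0.636 and Flt1 at 0.665. Tigit was nearest to Fgfbp1 (0.334), Ccdc92 (0.399) and Palm3 (0.496), Lgals9 to Stim1 (0.295), Chpt1 (0.311) and Slc25a42 (0.312), and Lag3 to Tie1 (0.295), Tent5c (0.350) and Ptpn7 (0.359). For Pdcd1lg2 they were C130050O18Rik (0.0815), Ffar2 (0.0957) and Htr7 (0.108), for Ctla4 Nr5a2 (0.147), Rasal1 (0.153) and Prkcq (0.154), and for Pdcd1, whose profile was nearly flat, Itch (0.104), Grb2 (0.109) and Tmem234 (0.115). These distances describe the 25 libraries, which share mice, lines and lanes, and low genes are near others because their values vary little.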

How the data were processed

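Total RNA of cultured BMEL lines and of sorted tumour and stroma cells was made into poly(A) libraries (NuGEN Universal Plus mRNAseq) and sequenced on an Illumina HiSeq. The authors aligned reads to mm9 with TopHat2 and deposited raw counts per gene for the 25 libraries. The submitters' processing notes also name mm8, mm10, Bowtie 0.12.2 and FastQC. The counting tool, its strand setting and the annotation are not given in the sources used here, so reads of overlapping genes cannot be told apart.

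Counts were scaled to CPM per library. Tests used edgeR 4.0.16 (R 4.3.3) with TMM factors, filterByExpr at a minimum count of 10, the quasi-likelihood F-test and Benjamini-Hochberg adjustment over all genes tested, with only the groups compared in each fit. The SE of a log2 fold change is its size divided by the square root of F. The interaction was fitted on the 16 tumour and stroma libraries. Alternatives were DESeq2 1.42.0, RLE factors, no filter on low counts, all 25 libraries in 1 fit, a replicate block, the fold and p thresholds of the study, scaling to the sum of 7 leukocyte genes and omission of each library in turn. The fitting code was tested on simulated data.

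Libraries of mouse 1 to 4 come from the same animals, which pairs them. The deviations of same-numbered libraries from their group means correlated at -0.0105 to 0.337 between stroma sites, at -0.222 to 0.0298 between tumour sites and at 0.0698 to 0.3 between stroma and tumour cells. Replicates are separate cultures or mice as far as the labels go. No pair of libraries was identical. RPKM used the union of exons of GENCODE M1 (mm9), and promoters came from RefSeq (GRCm38.p6), where 8 of 10 members had an entry. Intervals and floors cover counting error only.

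The members and all gene lists were chosen with earlier results of these data known. The rule for naming genes was all 10 members with their values, 11 named partners and 4 named genes of the interferon gamma arm, other list genes by counts, and the 3 genes most alike to each member. Of the genes under this rule, 2 are not reported here.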

Additional observations from a re-analysis of the deposited data

Results flagged for a closer look

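Of 36 groups of 4 libraries, 7 had a library far from the other 3 by Dixon's ratio (the gap to the nearest library over the range of the group, against its 95% critical value), and chance gives such a library in about 1 in 20 groups. In the peritoneal tumour cells of mouse 1, Lag3 was at 8.22 CPM against 2.72 to 3.28 (ratio 0.898), Cd80 at 2.26 CPM against 0 to 0.198 (ratio 0.913) and Cd86 at 2.52 CPM against 0.117 to 0.302 (ratio 0.923). The same library had Ptprc at 12.5 CPM against 1.07 to 1.24 and Laptm5 at 31.7 CPM against 2.49 to 3.92. Mouse 4 held the other 4 values. Its peritoneal stroma had the highest Cd274, 191 CPM against 103 to 117 (ratio 0.838), and its liver stroma had the lowest Pdcd1, 0.665 CPM against 1.09 to 1.14 (ratio 0.89). Tigit in mouse 4 was highest in liver stroma, 3.40 CPM against 1.88 to 2.0 (ratio 0.921), and in peritoneal tumour cells, 2.34 CPM against 0.860 to 1.07 (ratio 0.855).

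For Lgals9 the difference between the sites was 0.90 higher in stroma than in tumour cells on the log2 scale (SE 0.28), and this difference passed the interaction test (adjusted p = 0.0427) but did not hold under most alternatives. It was lost in 13 of the 16 fits that left out 1 library, and with RLE factors (adjusted p = 0.0546), no filter (0.0800), all 25 libraries (0.113) and leukocyte scaling (0.408), within a range of 0.0150 to 0.408. The lowest adjusted p was that of the fit with the mouse as a block, where the value was 0.91.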

How the results depend on the processing

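Low counts limited Pdcd1, Ctla4, Pdcd1lg2, Cd80 and Cd86 in cultured and tumour cells most, and 3 or 4 libraries a group limited every test. Over the alternatives for single members, 872 values kept their direction and side of the threshold, 54 lost and 18 gained a call, and 29 reversed. The cause of these changes was not tested. DESeq2 moved the median of all genes in stroma against tumour cells to 0.247 at both sites, and scaling to leukocyte genes moved it to -0.77 in tumour sites, to -0.59 in stroma sites and to -5.86 and -5.95 in stroma against tumour cells of the liver and the peritoneum.

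In RasLOW against BMEL WT 1 member and 734 genes were called, which became 2 and 1640 with DESeq2, 3 and 2440 with all 25 libraries, 0 and 295 with the replicate block (Cd80 adjusted p = 0.0875, in a range of 2.74e-05 to 0.102), and 0 to 2 and 148 to 2340 with 1 library left out. Replicate numbers of the lines share only a number, since the correlations of same-numbered deviations ran from -0.563 to 0.266. In RasHIGH against BMEL WT 2789 genes became 4347 with all 25 libraries, 1190 with the study's thresholds and 1517 to 3896 with 1 library left out. In RasHIGH against RasLOW 0 members and 9 genes became 1 and 414 with DESeq2, 1 and 77 with no filter, 1 and 917 with all 25 libraries, 1 and 253 with the study's thresholds, 0 genes with the block, and 0 to 1 and 0 to 16 with 1 library left out. In tumour sites 0 members and 419 genes became 1 and 1239 with DESeq2, 102 genes with the block and 41 to 884 with 1 library left out. In stroma sites 6 members and 4926 genes became 2 members with all 25 libraries, 2 and 2107 with the study's thresholds and 10174 genes (312 higher, 9862 lower) with leukocyte scaling. In stroma against tumour cells the study's thresholds gave 6437 genes in the liver and 6377 in the peritoneum. In the interaction 1 member and 2191 genes became 2 members with DESeq2, 0 with RLE factors, no filter, all 25 libraries or leukocyte scaling, 1180 and 501 genes with the last 2, and 0 to 1 members with 1 library left out. The mouse block changed 1 other member call, that of Cd86 in stroma sites.

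Values that reversed were small, came from leukocyte scaling or rested on 1 library. Cd274 in RasLOW, 0.02, became -0.018 with the block and ranged from -0.25 to 0.20 with 1 library left out. Lgals9 in RasHIGH against RasLOW ranged from -0.58 to 0.12, the last without RasLOW replicate 2. Tigit ranged from -0.095 to 0.48 in tumour sites, and from -0.021 to 0.63 in stroma against peritoneal tumour cells. In tumour sites Lag3 ranged from -0.62 to 0.24 and Cd86 from -1.59 to 0.78, and the interaction ranged from -1.66 to 3.73 for Pdcd1, -0.38 to 0.56 for Lag3, -0.71 to 1.92 for Cd80 and -0.32 to 2.17 for Cd86, in each case reversing without the peritoneal tumour cells of mouse 1. Leukocyte scaling turned Cd274, Havcr2 and Tigit in tumour sites to -0.38, -0.62 and -0.77, Lgals9 and Cd86 in stroma sites to -0.51 and -0.10, and Pdcd1, Lag3, Tigit and Lgals9 in stroma against tumour cells to -0.15, -1.47, -4.99 and -3.68 in the liver and to -0.96, -1.49, -5.85 and -4.58 in the peritoneum. In tumour libraries much of the sum used for this scaling was Cd53.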
